A study of Mus musculus with 22 samples.

Results

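The 9 genes described here are the fibroblast growth factor (FGF) receptors Fgfr1, Fgfr2, Fgfr3 and Fgfr4, the ligands Fgf1, Fgf2, Fgf7 and Fgf10, and the FGF carrier Fgfbp1. They were chosen by name, as the receptors of the family and the ligands made in bladder epithelium or stroma, and all 9 were among the 17404 genes tested, of 22911 genes with a symbol on the array. RNA of mouse bladders was measured on 22 one-colour Agilent arrays in 8 groups. The bladders of 7 groups (19 arrays) were exposed to the bladder carcinogen N-butyl-N-(4-hydroxybutyl)nitrosamine (BBN), taken in drinking water over 24 weeks from 2 months of age. All mice were sampled at 8 months.

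Of the BBN groups, 4 carried an activated Trp53 mutation on 1 allele, beside a red fluorescent reporter (LSL-RFP) that Cre switches on. Cre was of the tamoxifen-inducible CreERT2 form, and its promoter was Krt5, active in basal cells, or Upk2, active in luminal cells. With Krt5-Cre there were R270H (3 arrays) and R172H (4) mutants, and with Upk2-Cre likewise R270H (2) and R172H (3), named below by driver and allele. The Krt5-Cre (2) and Upk2-Cre (2) groups had the same Cre and reporter without a mutant allele, and every Cre group received tamoxifen. The Trp53 het group (3) had BBN with neither Cre nor tamoxifen. Its titles read Trp53+/-, while its genotype entry reads Trp53R270H/+. The normal group (3) was wild type, with no tamoxifen and no BBN. Its tissue entry names urothelium, while the extraction notes name whole bladders for all samples. In whole tissue, fewer cells of a type and less RNA per cell cannot be told apart.

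FGFs are secreted proteins that bind receptor tyrosine kinases together with heparan sulfate chains, and the receptors signal through adaptors to the ERK kinases. In the bladder, Fgf7 and Fgf10 are made by stromal cells and act on an epithelial form of the receptor Fgfr2. In humans, FGFR3 is a driver gene of urothelial carcinoma, mutated mostly in papillary tumours. Fgfbp1 is a secreted carrier that releases FGFs from the matrix.

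Each array held 59305 spots without controls, of which 42.4% to 63.2% exceeded background clearly and 0 were saturated. A level is given as log2 of the signal over its array's 75th percentile, so 0 is that percentile. Slides 1 and 2 (11 BBN arrays) were read by 1 scanner model, and slides 3 (8 BBN arrays) and 4 (the 3 normals alone) by another, so slide 4 and normal tissue cannot be told apart. The first scanner gave 42.4% to 57.2% of spots above background and the second 56.3% to 63.2%. The lowest level counted as above background was −4.48 to −2.69 on arrays of the first and −5.81 to −5.00 on those of the second. Levels and detection counts of dim genes (Fgf2, Fgf10, Fgfr4) therefore depend on the scanner. By Xist and the Y-linked genes, 11 of 22 arrays, the 3 normals among them, do not match the labelled sex. A code in the labels is shared by both Upk2-Cre arrays and by Trp53 het replicates 1 and 2, and whether a shared code means 1 animal is not stated. If it does, Upk2-Cre rests on 1 animal. Each array is called a bladder below. Trp53, the mutated gene, had group means between −0.99 and −0.23 in the 4 mutant groups, between 0.36 and 1.14 in the other BBN groups and −1.12 ± 0.10 (SD, n = 3) in normals, and its probe does not separate the alleles. The luminal markers fell in BBN bladders (8 of 9, 0 higher) and basal markers rose (7 of 9, 0 lower), where 19% of all tested genes fell and 23.7% rose.

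The BBN bladders were compared with the normal ones to ask how carcinogen exposure, with the genotypes that go with it, moved the FGF genes. Fgfbp1 rose the most of the 9, and the ligand Fgf10 also passed the test upward. The ligands Fgf1 and Fgf7 and the receptor Fgfr1 fell. Fgfr2, Fgfr3, Fgfr4 and Fgf2 did not pass the test. In all, 5 of 9 members passed (limma, adjusted p at or under 0.05), 2 higher and 3 lower, where 42.7% of all tested genes passed, 23.7% higher and 19% lower. The median difference was 0.20 on the log2 scale over the 9 members and 0.13 over all tested genes. The normals also differ from the BBN mice in slide, genotype and, but for Trp53 het, tamoxifen, and those parts cannot be told apart. The normals are also all labelled female and all male by RNA, while the BBN arrays are of both sexes by either reading. Since the tissue entry of the normals names urothelium, a difference in the tissue taken cannot be told apart either.

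Among the ligands, Fgf1, which binds all FGF receptors, reached −2.21 at the lowest, −0.44 at the median and 1.77 at the highest of the 19 BBN arrays, against 2.56, 2.89 and 2.52 in the 3 normal bladders. All 19 BBN bladders lay below all normals, as was the case for 12% of all tested genes. The highest BBN values, in Krt5-Cre replicate 1 and Krt5-Cre R270H replicate 2, came nearest to the normals. Fgf1 fell by 3.12 on the log2 scale (SE 0.54), 8.68-fold lower in BBN bladders (limma adjusted p = 0.000302). Of its other probes, the probe above background on 3 arrays gave −1.79 (adjusted p = 0.0351) and the one above it on 19 arrays −1.34 (adjusted p = 0.178).

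Fgf7, the keratinocyte growth factor of the stroma, was at −4.97, −2.95 and −0.28 at the lowest, median and highest of the BBN arrays, against −0.83, −0.79 and −0.99 in normals. Fgf7 was lower than all normals in 18 of 19 BBN bladders, and Krt5-Cre replicate 1 was the exception, at −0.28. It was well above background on 15 of 19 BBN arrays and on all 3 normals. Fgf7 fell by 1.73 (log2, SE 0.56), 3.33-fold lower in BBN bladders (adjusted p = 0.0204). It has 1 probe on the array.

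Fgf10, which acts on the same epithelial receptor, was measured near the detection limit. Its lowest, median and highest BBN values were −7.44, −5.56 and −1.22, against −7.56, −7.27 and −7.77 in normals. The highest value came from Krt5-Cre R270H replicate 3, and 2 BBN arrays lay within the range of the normals. The fit gave a difference of 2.24 (log2, SE 0.78; adjusted p = 0.0287). However, the probe was well above background on 4 of 19 BBN arrays and on 0 of 3 normals, so the fitted difference compares mostly undetected values and no fold is given. The other Fgf10 probe was above background on no array.

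Fgf2, a ligand stored in the matrix, ran from −6.23 to −2.11 with a median of −4.92 on BBN arrays, against −5.81, −5.37 and −5.82 in normals. It was well above background on 7 BBN arrays and no normal one, and did not pass the test (adjusted p = 0.174). The highest Fgf2 value came from Trp53 het replicate 2, where Fgfr4 was also high.

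Among the receptors, Fgfr1, the receptor typical of mesenchymal cells, stood at 0.16, 1.59 and 3.02 at the lowest, median and highest of the BBN arrays, against 3.04, 3.02 and 3.06 in normals. All BBN bladders lay below all normals, although Krt5-Cre R270H replicate 2 lay just under them. The normals lay close together in this gene and the BBN arrays were spread widely. Fgfr1 fell by 1.48 (log2, SE 0.44), 2.79-fold lower in BBN bladders (adjusted p = 0.0138). Its 3 dimmer probes gave −0.27 (adjusted p = 0.759), −1.96 (adjusted p = 0.0123) and −1.98 (adjusted p = 0.0229).

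Fgfr3 ran from 0.73 to 3.55 with a median of 2.62 in BBN bladders, against 3.56, 3.64 and 3.63 in normals. The groups did not overlap, but Trp53 het replicate 3 (3.55) lay next to the lowest normal, and the difference of −1.06 (log2, SE 0.46) did not pass the test (adjusted p = 0.0747). Its dimmer probe gave −1.58 (adjusted p = 0.0582), and with the mean over both probes the difference was −1.32 (adjusted p = 0.0450). Fgfr3 also passed without Upk2-Cre R270H replicate 2 (−1.21, adjusted p = 0.0311) and without Krt5-Cre R172H replicate 3 (−1.13, adjusted p = 0.0272). Those 2 arrays were among the higher BBN values, at 3.38 and 3.37. Of the 37 alternatives, these 3 (the mean over both probes and the 2 arrays left out) passed. In the other 34 Fgfr3 did not pass, with adjusted p up to 0.233 with the scanner as a block (−0.89).

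Fgfr2, the receptor of Fgf7 and Fgf10, varied little between the groups. It ran from −2.56 to −0.50 with a median of −1.08 in BBN bladders, against −1.41, −1.40 and −1.25 in normals, and differed by 0.20 (log2, SE 0.27, adjusted p = 0.550). The normals lay inside the BBN range. Fgfr4 ran from −5.63 to −0.41 with a median of −4.20 in BBN bladders, against −4.67, −4.28 and −4.60 in normals (log2 difference 0.73, SE 0.78, adjusted p = 0.461). It was well above background on 11 of 19 BBN arrays and all 3 normals. Its 3 highest values came from Krt5-Cre replicate 2, Trp53 het replicate 2 and Krt5-Cre R270H replicate 1, all on slide 1.

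Fgfbp1 was at 0.01, 3.25 and 4.91 at the lowest, median and highest of the BBN arrays, against −3.44, −4.70 and −4.87 in normals. Every BBN bladder exceeded every normal, and 13.6% of all tested genes had all BBN bladders above all normals. The 4 lowest BBN values, in Krt5-Cre R172H replicate 3, Krt5-Cre R270H replicate 2, Upk2-Cre R270H replicate 1 and Trp53 het replicate 2, came from 4 different groups. The gene rose by 7.22 (log2, SE 0.90), 149-fold higher in BBN bladders (adjusted p = 1.46e-05), and its other probe gave 7.15.

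**Figure D1:**
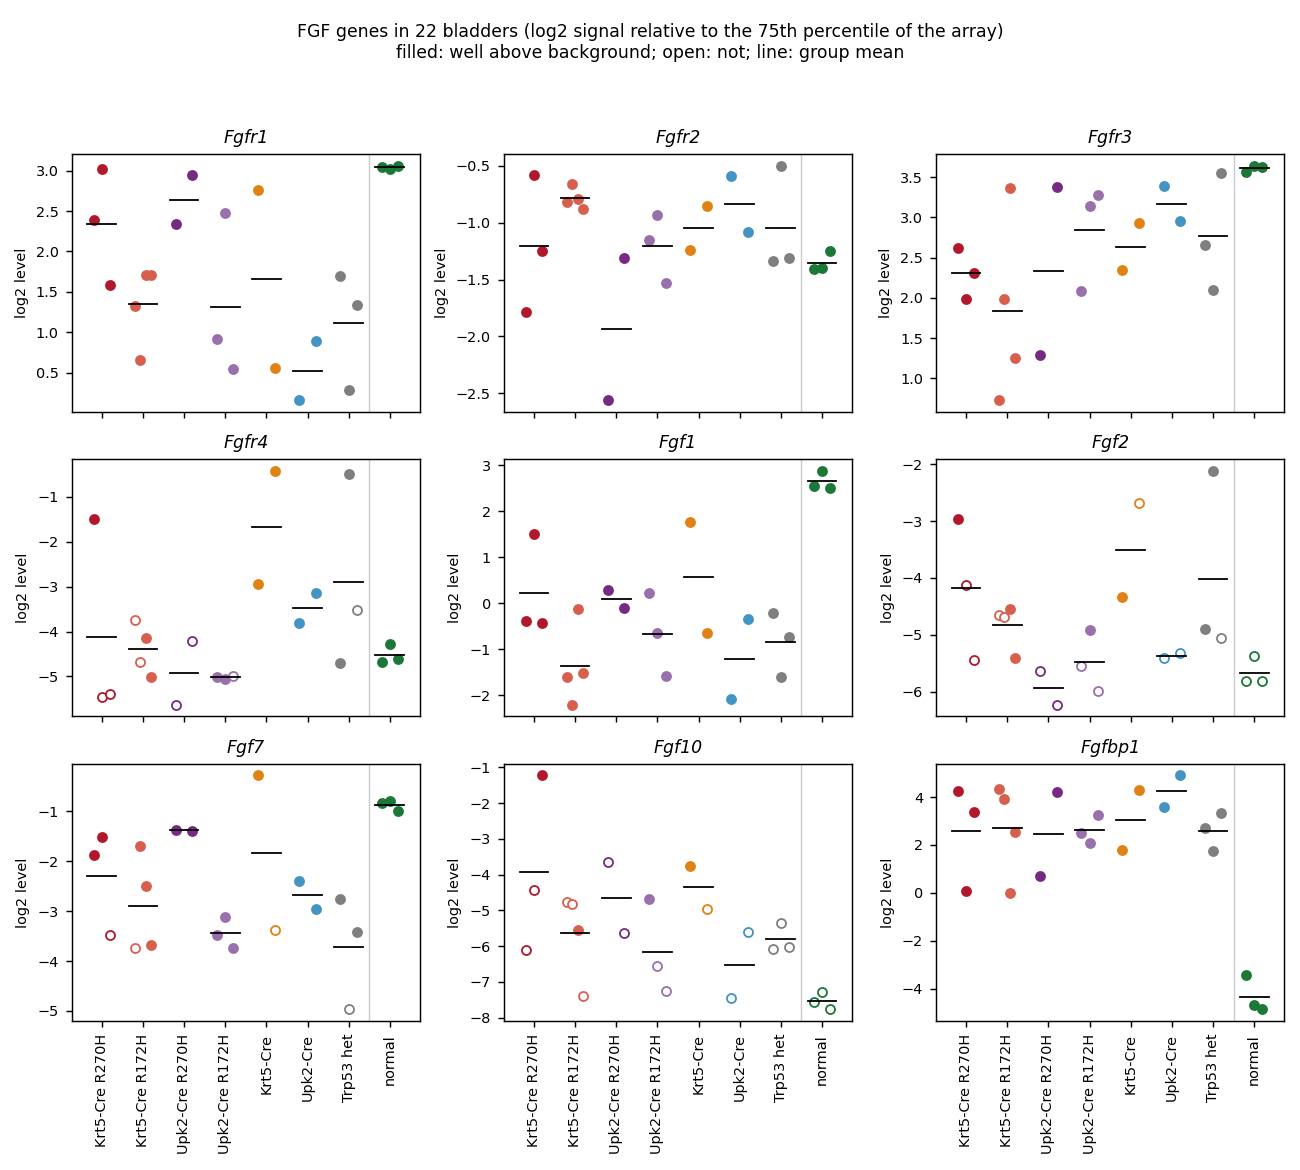
Log2 level of each FGF gene on each array (vertical axis, relative to the 75th percentile of the array) by group, with filled points well above background, open points not, and lines at the group means. Fgfbp1 sits above the normals on all 19 BBN arrays, and Fgf1 and Fgfr1 sit below them on all 19.

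The start regions of 2 members that passed in opposite directions are shown so that they can be set side by side. They are windows of 300 bases, 250 before and 50 after the start that RefSeq annotates on GRCm38.p6. Fgfbp1 lies at chr5:43981750-43982049 on the minus strand and Fgf7 at chr2:126034408-126034707 on the plus strand. Capitals mark a match to one of 3 motifs, searched on both strands.
Fgfbp1: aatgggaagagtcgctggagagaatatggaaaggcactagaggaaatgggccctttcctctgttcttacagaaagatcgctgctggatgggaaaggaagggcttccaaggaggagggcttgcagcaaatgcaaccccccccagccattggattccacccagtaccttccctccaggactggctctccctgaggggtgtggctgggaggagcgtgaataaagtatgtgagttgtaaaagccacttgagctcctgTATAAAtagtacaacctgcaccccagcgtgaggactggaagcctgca
Fgf7: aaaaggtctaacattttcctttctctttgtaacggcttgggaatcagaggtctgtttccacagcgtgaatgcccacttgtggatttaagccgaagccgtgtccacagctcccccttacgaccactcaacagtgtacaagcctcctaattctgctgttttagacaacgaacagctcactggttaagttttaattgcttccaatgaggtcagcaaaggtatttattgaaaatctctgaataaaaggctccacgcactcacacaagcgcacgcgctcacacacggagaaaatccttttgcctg
The motifs were the AP-1 site TGANTCA, the GC box GGGCGG and the TATA box TATAAA, found in 7.81%, 35.7% and 13.6% of 32851 such windows. The Fgfbp1 window held 1 TATAAA, which begins at base 254 of the window and so lies after the annotated start, and neither other motif. The Fgf7 window held no match to any of the 3. RefSeq windows were found for 7 of 9 members. None was found for Fgfr1 and Fgf1, although their probes map to RefSeq transcripts, and the reason was not examined. Both Fgfr3 windows held GC boxes (4 and 2, the pair in the second overlapping by 1 base), as did those of Fgfr4 (4), Fgf2 (1) and Fgf10 (1), while the Fgfr2 window held no match. A match is a run of letters and not a measured site.

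Each BBN group was then set against the normals, to show whether the differences were spread over genotypes. Of 63 pairs of group and member, 22 passed, and 26.1% of all tests over the 7 groups passed. With the scanner as a block 15 of these 22 pairs passed, and with slide as a random block 16. The 7 comparisons share the 3 normal arrays. Members passing numbered 3 of 9 in Krt5-Cre R270H (30.1% of all genes), 5 in Krt5-Cre R172H (32.5%), 2 in Upk2-Cre R270H (19.3%), 4 in Upk2-Cre R172H (24.4%), 1 in Krt5-Cre (17.5%), 3 in Upk2-Cre (28.1%) and 4 in Trp53 het (31%).

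Fgfbp1 rose in all 7 groups, with log2 differences between 6.78 in Upk2-Cre R270H and 8.58 in Upk2-Cre, and passed in all 7 with either block. Fgf1 fell in 6 groups and was at −2.09 in Krt5-Cre (adjusted p = 0.0790), where its 2 arrays were at 1.77 and −0.64. With the scanner as a block it no longer passed in Krt5-Cre R270H (−1.65, adjusted p = 0.225) and Upk2-Cre R270H (−1.79, adjusted p = 0.232), nor with slide as a random block (0.0557 and 0.111). Fgfr1 fell in Krt5-Cre R172H (−1.69), Upk2-Cre R172H (−1.73), Upk2-Cre (−2.52) and Trp53 het (−1.93). Its difference was −0.71 in Krt5-Cre R270H, −0.40 in Upk2-Cre R270H and −1.38 in Krt5-Cre, none of which passed. Of its 4 calls, the scanner block kept Upk2-Cre R172H and Upk2-Cre (Krt5-Cre R172H 0.0849, Trp53 het 0.107), as did a fit within the scanner of the normals (0.0868 and 0.187), and the slide block kept Upk2-Cre and Trp53 het (Krt5-Cre R172H 0.0587, Upk2-Cre R172H 0.0534; all adjusted p). Fgf7 fell in Krt5-Cre R172H (−2.03), Upk2-Cre R172H (−2.57) and Trp53 het (−2.84), and its Krt5-Cre R172H call was lost with the scanner (adjusted p = 0.104) or slide (0.0667) as a block. Fgfr3 fell in Krt5-Cre R172H (−1.77, adjusted p = 0.0245), where its arrays were at 0.73, 1.99, 3.37 and 1.25. It passed there neither with the scanner (adjusted p = 0.0614) or slide (0.0713) as a block nor within the scanner of the normals (−1.30, 0.146). Fgf10 passed upward in Krt5-Cre R270H (adjusted p = 0.0143, and 0.166 with the scanner as a block), where 1 of 3 arrays, at −1.22, was above background, against 0 of 3 normals. A gene that passed in some groups and not in others is not thereby shown to differ between them.

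In the order of group means, the normals stood first for Fgfr1, Fgfr3, Fgf1 and Fgf7 and last for Fgfbp1 and Fgf10. For Fgfr1, Fgfr3, Fgf1, Fgf7 and Fgfbp1, the range of the normals did not overlap that of the neighbouring group. For Fgfr1, Fgfr3 and Fgf1 all BBN bladders lay below all normals (12% of all tested genes), and for Fgfbp1 above them (13.6%). For Fgf7 they did not separate, since Krt5-Cre (−3.38 to −0.28), ranked 3 by mean, spanned the normals (−0.99 to −0.79). All other neighbouring groups in those orders overlapped, although some groups farther apart in the order did not. For Fgfr1, Upk2-Cre R270H (2.34 to 2.94) lay above Krt5-Cre R172H (0.65 to 1.71), Trp53 het (0.29 to 1.70) and Upk2-Cre (0.16 to 0.89). For Fgf7, Upk2-Cre R270H (−1.39 to −1.37) lay above those groups and Upk2-Cre R172H, whose highest value was −1.70 in Krt5-Cre R172H. These cases rest on 2 Upk2-Cre R270H arrays and were picked out after their values were seen. The share of all tested genes with such gaps was not computed. The Upk2-Cre R270H and Upk2-Cre R172H arrays were read by different scanners. For Fgfr1, the groups next to the normals were Upk2-Cre R270H (2.64 ± 0.42, SD, n = 2) and Krt5-Cre R270H (2.33 ± 0.72, n = 3), and the lowest was Upk2-Cre (0.52 ± 0.52, n = 2). For Fgfbp1, Upk2-Cre stood first (4.24 ± 0.94, n = 2) and Upk2-Cre R270H last among BBN groups (2.44 ± 2.47, n = 2).

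**Figure D2:**
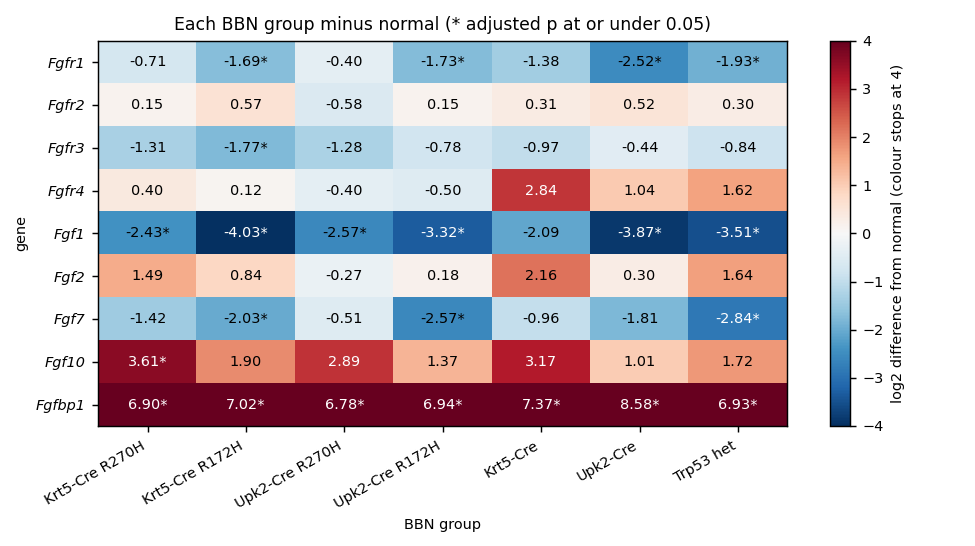
Log2 difference of each FGF gene (rows) in each BBN group (columns) from the normal group, as numbers and colour (red higher, blue lower, colour stops at 4), with an asterisk for an adjusted p at or under 0.05. The Fgfbp1 row carries an asterisk in 7 of 7 groups and the Fgf1 row in 6.

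Calls rested on the normals and on the scanner to different degrees. Fgfbp1 and Fgf1 passed under each of the 37 alternatives in which they were tested, including the scanner as a block (6.18 and −2.65). Fgfr1, Fgf7 and Fgf10 no longer passed without any one of the 3 normals, although their differences stayed between −1.64 and −1.32, −1.96 and −1.51, and 2.05 and 2.39 with any 1 of the 22 arrays left out. The highest adjusted p was then 0.0558 for Fgfr1, 0.0747 for Fgf7 and 0.107 for Fgf10. With the scanner as a block they were at −1.02 (adjusted p = 0.116), −1.20 (0.151) and 1.74 (0.152). Among arrays of the scanner that read the normals, with 5 BBN groups, Fgf1 was at −3.06, Fgfbp1 at 6.72, Fgfr1 at −1.51 (adjusted p = 0.0170) and Fgf7 at −1.52 (adjusted p = 0.00358), while Fgf10 was at 1.55 (adjusted p = 0.0721). The normals were all read by that scanner, so no value can be given within the other.

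Several lists of cell type markers also differed between BBN and normal bladders, where 23.7% of all tested genes rose and 19% fell. The fibroblast list fell in 5 of 8 tested genes (0 higher, median log2 difference −2.19), and the log2 of its summed signal ran from 4.64 to 8.23 in BBN bladders against 8.60 to 8.94 in normals. The basal list's sum ran from 9.60 to 11.57 in BBN bladders against 7.99 to 8.38 in normals, and the luminal list's from 3.52 to 6.65 against 9.47 to 9.86. Smooth muscle markers rose in 7 of 7 (sum 6.70 to 10.15 in BBN bladders against 5.77 to 6.66 in normals). In the endothelial list 1 of 6 fell, in the leukocyte list 2 of 7 rose and in the nerve and Schwann cell list 1 of 5 rose. These counts are close to the shares of all tested genes, and the sums of these lists overlapped between BBN and normal bladders. A sum follows the brightest genes, and the mean log2 deviation of a list's genes separated other lists. By it, the leukocyte list ran from −0.58 to 1.31 in BBN bladders against −1.47 to −1.26 in normals, without overlap. The fibroblast list (−2.025 to 1.75 against 1.44 to 1.97) and the smooth muscle list (−1.61 to 2.66 against −2.50 to −1.39) overlapped. The luminal gene Snx31 was above background on no BBN array and the basal gene Dsg3 on no normal array. The part of cell makeup in the changes of the FGF genes was not tested.

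Within the 19 BBN bladders, Fgfr1 followed the fibroblast, the endothelial and the nerve and Schwann cell markers. Marker scores are mean deviations of a list's genes from their average over arrays. Over 63 relations of 9 members with 7 lists, 14 passed (adjusted permutation p of Pearson's r at or under 0.05), 4 of them for Fgfr1, 5 for Fgf1, 4 for Fgf7 and 1 for Fgfbp1. How many of all tested genes would pass with these scores was not computed. The permutations treat the 19 arrays as exchangeable, although these come from several groups and 2 scanners and some share a code. Fgfr1 and the fibroblast score had r = 0.90 and rho = 0.89 over 19 arrays, each with permutation p = 1e-05, the smallest that 100000 resamples can give (adjusted p = 0.000315). Without the 2 arrays farthest from the median, r was 0.87, and within the scanners it was 0.95 (11 arrays) and 0.86 (8 arrays). Fgfr1 ran against the basal score (r = −0.84, rho = −0.85, permutation p = 1e-05 and 3e-05, adjusted 0.000315 and 0.000473, and −0.81 without the 2 arrays farthest from the median of that score). Its relations with the endothelial score (r = 0.85, adjusted permutation p = 0.000315) and the nerve and Schwann cell score (r = 0.80, adjusted 0.000756) were nearly as close as that with the fibroblast score.

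Fgf1 also followed the fibroblast score (r = 0.83, permutation p = 2e-05, rho = 0.85, p = 1e-05, both adjusted 0.000315). Its r was 0.70 without the 2 farthest arrays and 0.78 and 0.92 within the scanners. With the smooth muscle score, Fgf1 had r = 0.64 (adjusted permutation p = 0.017), which fell to 0.28 without the 2 farthest arrays, and its rho did not pass (adjusted 0.127). With the nerve and Schwann cell score, r was 0.59 (adjusted 0.0392), and 0.70 without the 2 farthest arrays, while rho did not pass (adjusted 0.0993). Fgf7 followed the smooth muscle score (r = 0.80, permutation p = 8e-05, adjusted 0.00084, rho = 0.84, p = 5e-05, adjusted 0.000525), with 0.71 without the 2 farthest arrays and 0.72 and 0.96 within the scanners. Between BBN and normal bladders, Fgf7 fell while the smooth muscle markers rose. Fgf7 also passed with the fibroblast score, whose list fell as Fgf7 did (r = 0.70, permutation p = 0.00098, adjusted 0.00772, rho = 0.58, p = 0.0112, adjusted 0.0540), with 0.55 without the 2 farthest arrays and 0.75 and 0.63 within the scanners. Fgfbp1 and the basal score had r = 0.62 (permutation p = 0.00412, adjusted 0.0200) and rho = 0.51 (p = 0.0269, adjusted 0.0998), and r was 0.44 without the 2 farthest arrays, so this relation leans on those arrays. Fgf1 and Fgf7, like Fgfr1, ran against the basal score. For Fgf1, r was −0.76 (adjusted permutation p = 0.00144) and rho −0.82 (adjusted 0.000504). For Fgf7, r was −0.66 (adjusted 0.0122) and rho −0.64 (adjusted 0.0288). Fgf7 also followed the nerve and Schwann cell score (r = 0.67, adjusted 0.0115, rho = 0.59, adjusted 0.0458). No relation of Fgfr2 or Fgfr3 passed.

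**Figure D3:**
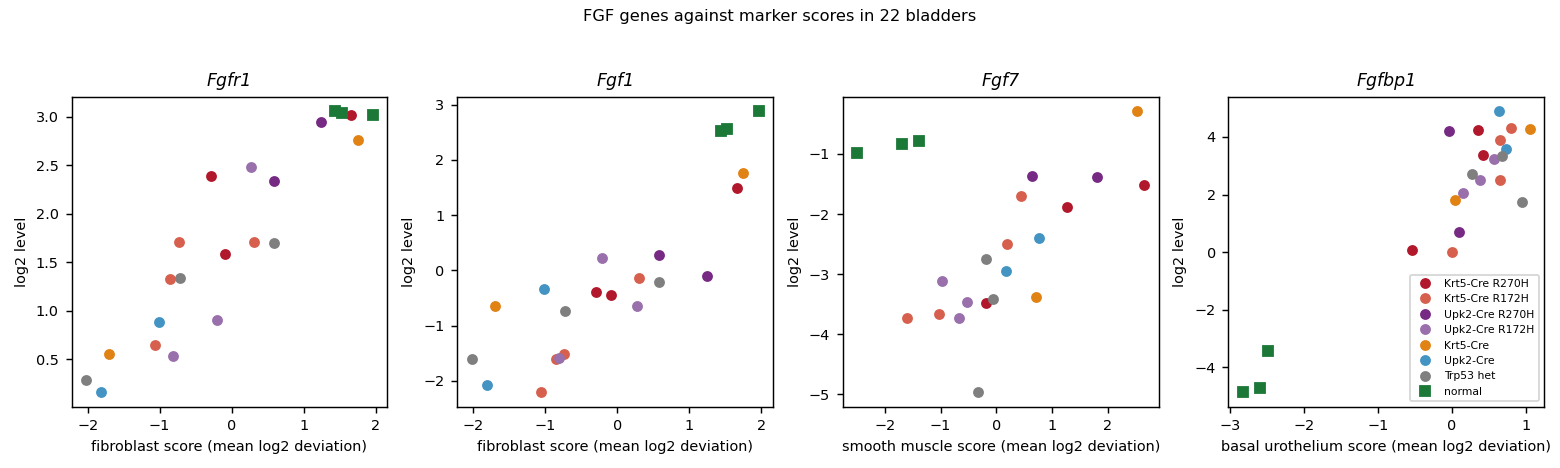
Log2 level (vertical axis) of Fgfr1 and Fgf1 against the fibroblast score, of Fgf7 against the smooth muscle score and of Fgfbp1 against the basal urothelium score (horizontal axes, mean log2 deviation), 1 point per bladder with normals as squares. Fgfr1 rises with the fibroblast score over the BBN bladders (r = 0.90), while for Fgf7 the 3 normals stand apart from the BBN bladders.

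Members also varied with one another over the 19 BBN arrays, given here without a test, since the arrays share scanners and cell makeup. Fgfr1 correlated with Fgf1 (r = 0.72) and Fgf7 (r = 0.64), and Fgf1 with Fgf7 (r = 0.58). Fgfr4 correlated with Fgf2 (r = 0.81), both of them near background on many arrays. The highest values of both came from the same arrays of slide 1, Krt5-Cre replicate 2, Trp53 het replicate 2 and Krt5-Cre R270H replicate 1. On Krt5-Cre replicate 2, Fgf2 was not well above background. Fgfr3 had no correlation beyond 0.37 in size with any other member. By the highest correlation over these arrays, the genes most like Fgfr1 were Lix1l (0.94), Adgra2 (0.93), Mmrn2 (0.92) and Tspan18 (0.92). Those most like Fgf7 were Fhl1 (0.92), Ogn (0.91), Rspo3 (0.90) and Itga1 (0.89), and those most like Fgfbp1 were Zdhhc5 (0.91), Atl2 (0.88), Hmgcs1 (0.88) and Stfa1 (0.85). For Fgfr2 they were Chid1 (0.78), Acat3 (0.77), Tmem94 (0.76) and Tfr2 (0.76), and for Fgfr3 Zkscan8 (0.78), Glul (0.78), Brpf3 (0.75) and Fam228b (0.74).

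The BBN groups were compared with one another to ask what the Trp53 mutation, its allele and the cell type of Cre added. No member passed in any of the 6 comparisons (limma), and all tested genes gave 2 calls for Krt5 mutants against Krt5-Cre (0.0115%), 1 each for Upk2 mutants against Upk2-Cre and Krt5 against Upk2 mutants (0.00575% each) and 0 in the other 3 (0%). Groups of 2 to 4 arrays limit what these comparisons can show.

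R270H removes a residue of p53 that touches DNA and R172H unsettles the protein's fold, and the alleles were compared over both Cre drivers. Fgfr1 was at 2.39, 3.02, 1.59, 2.34 and 2.94 in the 5 R270H bladders, against 0.54, 1.33 and 2.48 at the lowest, median and highest of the 7 R172H bladders. Most R270H values were at the upper end, yet the ranges overlapped, and the difference of 1.16 (log2, SE 0.42) had an unadjusted p of 0.0143 and an adjusted p of 0.362. Fgf7 was at −1.88, −1.51, −3.48, −1.37 and −1.39 in R270H bladders, against −3.73, −3.47 and −1.70 in R172H bladders (difference 1.33, adjusted p = 0.409). All R270H bladders but Krt5-Cre R270H replicate 3 were above the median of R172H in that gene.

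Differences between R270H and R172H for Fgf1 (1.17, adjusted p = 0.472) and Fgfr2 (−0.57, 0.471) likewise had unadjusted p under 0.05 only, as had Fgf10, which was above background on 1 of 5 R270H and 2 of 7 R172H arrays, too few to give a difference. In all, 5 of 9 members, Fgf10 among them, had an unadjusted p under 0.05, against 9.81% of all tested genes, and 0 passed after adjustment. Fgfr1, Fgf1 and Fgf7 correlate with each other and with the stromal scores, so they are not separate counts. The fibroblast score ran from −0.29 to 1.66 with a median of 0.59 in R270H bladders, against −1.06 to 0.30 with a median of −0.74 in R172H bladders. Medians in R270H and R172H bladders were 1.27 and −0.68 for the smooth muscle score, 1.85 and −0.72 for the nerve and Schwann cell score and 0.92 and −0.34 for the endothelial score. For the luminal, basal and leukocyte scores they were −0.29 and −1.12, 0.10 and 0.58, and 0.21 and −0.22. The part of cell makeup in the differences was not tested. The scanner of slides 1 and 2 read all R270H arrays and Krt5-Cre R172H replicates 1 and 2, and the Upk2-Cre R172H arrays were all read by the other. On slides 1 and 2, Krt5-Cre R270H against Krt5-Cre R172H (3 against 2 arrays) gave 1.35 for Fgfr1 and 2.14 for Fgf1 (adjusted p = 0.844 each), and 0.42 for Fgf7 (adjusted p = 1.0), in a fit chosen after seeing the data. With the scanner as a block, the differences were 1.74 for Fgfr1 (adjusted p = 0.132), 2.01 for Fgf7 (0.156), 1.76 for Fgf1 (0.204) and −0.67 for Fgfr2 (0.348).

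Between the mutant and the other BBN bladders, Fgfr4 had the lowest unadjusted p of the members, without passing. It ran from −5.63 to −1.49 with a median of −5.00 in the 12 mutant bladders, against −4.69 to −0.41 with a median of −3.14 in the 7 other BBN bladders. It was well above background on 5 of 12 mutant arrays and on 6 of 7 others. The difference was −1.93 (log2, SE 0.61, unadjusted p = 0.00549, adjusted p = 0.528), and a scanner block gave −2.03 (adjusted p = 0.150). A slide block gave −1.25 (adjusted p = 0.669), and in that fit Fgfr1 (adjusted p = 0.476) came before Fgfr4. Fgfr1 differed by 0.81 in that comparison (adjusted p = 0.602), and these 2 members had an unadjusted p under 0.05, against 7.89% of all tested genes.

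In Krt5 mutants against Krt5-Cre, 1 member had an unadjusted p under 0.05 (4.8% of all genes). This was Fgfr4, at −1.49, −5.45 and −5.40 in Krt5-Cre R270H and −3.74, −4.68, −4.15 and −5.01 in Krt5-Cre R172H, against −2.93 and −0.41 in Krt5-Cre. Krt5-Cre R270H replicate 1 lay between the 2 Krt5-Cre bladders and all other mutants below both. The difference was −2.58 (SE 1.0, adjusted p = 0.943). On the scanner that did not read the normals, Krt5-Cre has 1 array, and 1 of 5 mutant arrays was above background there, so no difference is given within it.

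In Upk2 mutants against Upk2-Cre, Fgfr1 was the 1 member with an unadjusted p under 0.05 (6.29% of all genes). It was at 2.34 and 2.94 in Upk2-Cre R270H and 0.91, 2.48 and 0.54 in Upk2-Cre R172H, against 0.16 and 0.89 in Upk2-Cre. All but Upk2-Cre R172H replicate 3 lay above both Upk2-Cre bladders, and the difference was 1.45 (SE 0.60, adjusted p = 0.777). The fibroblast score ran from −0.82 to 1.24 in Upk2 mutants against −1.81 and −1.01 in Upk2-Cre.

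In Krt5 against Upk2 mutants, 2 members had an unadjusted p under 0.05 (5.3% of all genes), namely Fgf2 (1.21, SE 0.50) and Fgfr2 (0.57, SE 0.25), each with an adjusted p of 0.886. Fgf2 was above background on 3 of 7 Krt5 mutant arrays and on 1 of 5 Upk2 mutant arrays. In Trp53 het against the Cre controls, 1 member did (4.83% of all genes). This was Fgf7, at −2.75, −4.97 and −3.41 in Trp53 het, against −0.28, −3.38, −2.40 and −2.95 in the Cre controls (difference −1.46, SE 0.69, adjusted p = 1.0). The ranges overlapped.

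**Figure D4:**
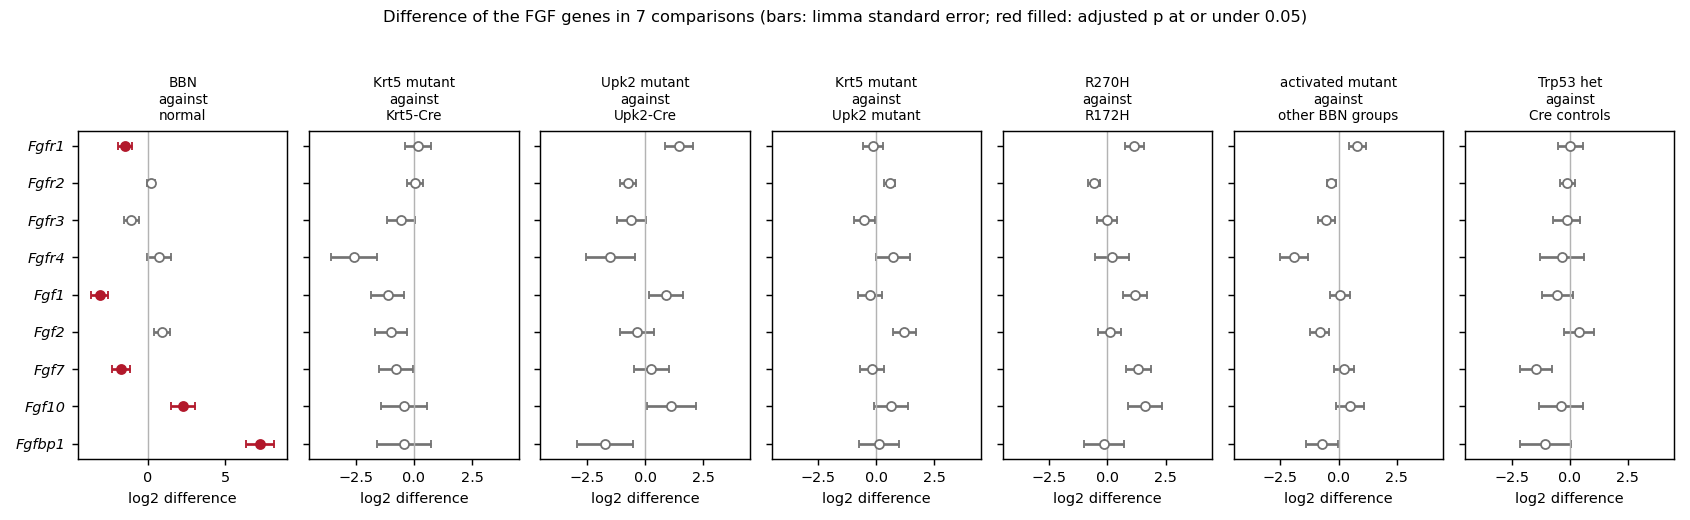
Log2 difference (horizontal axis) of each FGF gene in BBN against normal and in the 6 comparisons among BBN groups, 1 panel each, with limma standard errors as bars and red filled points for an adjusted p at or under 0.05. Red points stand for 5 genes in the BBN against normal panel and for none in the other 6, and the first panel has a wider axis.

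The other genes of the pathway were described from lists written from general knowledge of FGF signalling. Of 18 further ligands, 8 were tested in BBN against normal, of which 1 rose and 1 fell (median 0.39), a smaller share than over all tested genes. Fgf18, a ligand known from bone and lung development, was at −2.30 ± 0.49 (SD, n = 19) in BBN bladders and −4.31 ± 0.11 (n = 3) in normals, a rise of 2.03 (adjusted p = 9.46e-06). Fgf9, known from lung and gonad development, was at −3.32 ± 1.02 in BBN bladders and −0.62 ± 0.19 in normals, a fall of 2.71 (adjusted p = 0.00127). Fgf12 (0.83, adjusted p = 0.0505) and Fgf13 (adjusted p = 0.0538), which stay inside the cell, did not pass, and Fgf13 was well above background on 7 of 19 BBN arrays and 0 of 3 normals.

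Among co-receptors, binding proteins and heparan sulfate enzymes, 3 of 21 rose and 4 fell (median 0.21, against 0.13 over all tested genes). These 7 of 21 are a smaller share than the 42.7% of all tested genes that passed. Sdc2, a heparan sulfate proteoglycan of the cell surface, fell by 2.20 (adjusted p = 6.96e-05). Sulf2, which trims sulfate groups from heparan sulfate, fell by 2.73 (adjusted p = 0.00046), and Kl, the co-receptor of hormone-like FGFs, was at least 3.22-fold lower in BBN bladders, where it was above background on no array (adjusted p = 0.000311). Ext1, which builds heparan sulfate chains, rose by 1.38 (adjusted p = 0.000186). The remaining genes that passed, picked out after their values were seen, were the membrane proteins Flrt2 (1.49) and Flrt3 (−1.70) and the proteoglycan Gpc1 (1.21).

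Of 10 signal adaptors, 0 rose and 1 fell (median 0.17), again a smaller share than over all tested genes. Gab1, a docking protein downstream of the receptors, fell by 0.78 (adjusted p = 0.0199). Shc1 (0.39, adjusted p = 0.0871), Plcg1 (−1.23, adjusted p = 0.124) and Cbl (0.37, adjusted p = 0.183) did not pass.

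Of 18 tested feedback and target genes of FGF and ERK signalling, 6 rose and 2 fell (median 0.05). These 8 of 18 are close to the 42.7% of all tested genes that passed. Fosl1, an AP-1 transcription factor, was at −0.83 ± 0.90 in BBN bladders (SD, n = 19) and above background in no normal one, at least 23.7-fold higher in BBN bladders (adjusted p = 8.04e-07). For such bounds, the dim group is set on each array at the lowest signal that counts as above background or at the probe's own, whichever is higher. Etv4, an ETS transcription factor, was at 2.30 ± 0.97 in BBN bladders and −1.53 ± 1.11 in normals (n = 3), a rise of 3.81 (adjusted p = 0.000167). Spry1, a feedback inhibitor of receptor tyrosine kinases, fell by 2.43 (adjusted p = 4.15e-05), and Il17rd, an FGF antagonist of the membrane, fell by 1.90 (adjusted p = 0.000145). The other genes that passed, picked out after their values were seen, were the ERK phosphatase Dusp6 (1.49), Spred3 (1.75), Ccnd1 (1.0) and Dusp5, which was well above background on 9 of 19 BBN arrays and 0 of 3 normals. No gene of these lists passed in any of the 6 comparisons among BBN groups.

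**Figure D5:**
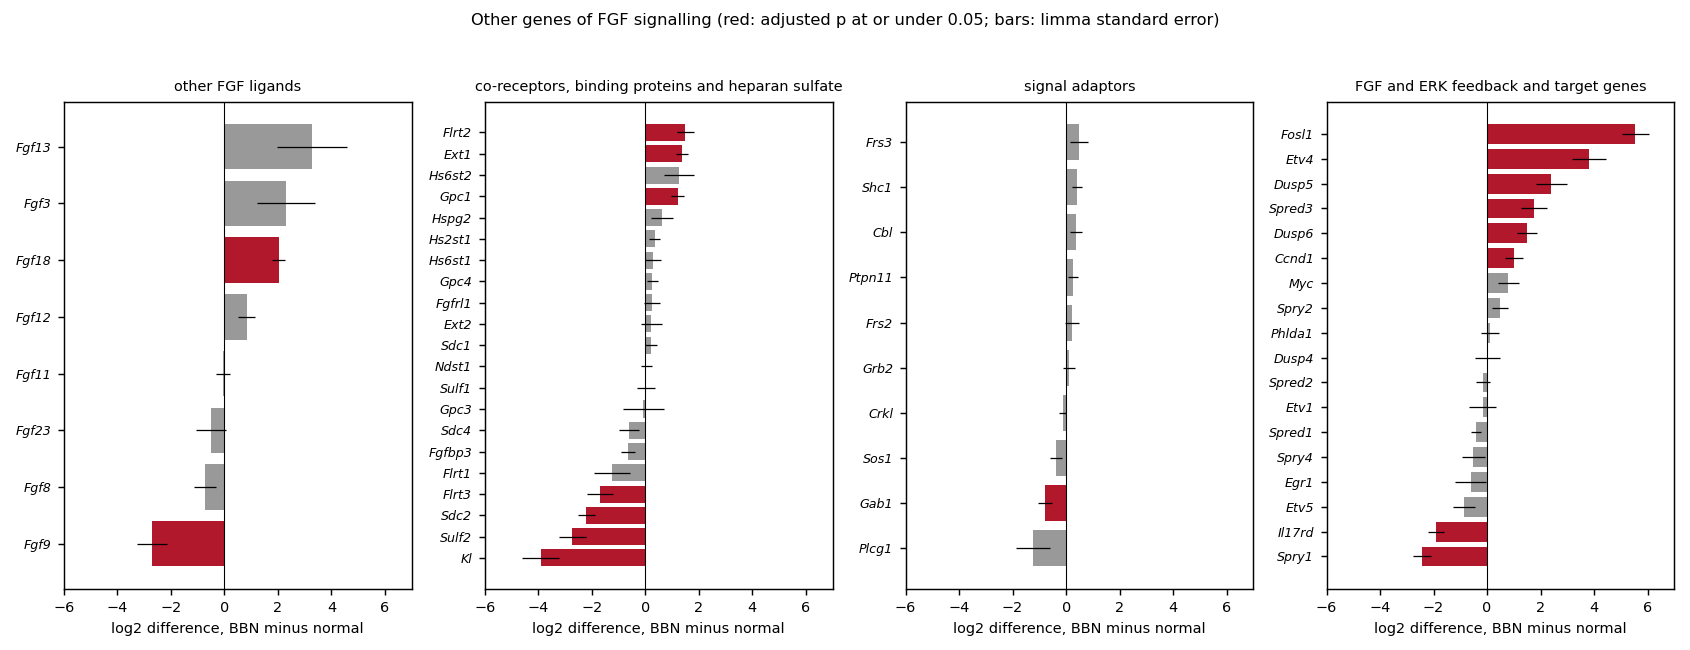
Log2 difference, BBN minus normal (horizontal axis), of the tested genes of 4 FGF pathway lists, with limma standard errors as lines and red bars for an adjusted p at or under 0.05. In the feedback and target list 6 bars are red to the right and 2 to the left.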

How the data were processed

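Bladder RNA was read on 22 Agilent arrays of 1 colour. Per the file headers, the deposited spot intensity values were background-subtracted by Feature Extraction 11.0.1.1. Per the submitters' processing notes it was version 9.1, and limma is listed without a version. The deposited normalized table holds log2 values whose columns share their highest value (18.8), and it served as an alternative.

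The processed signal was taken as log2 minus the 75th percentile of each array, with spots marked as outliers left out (53 to 301 per array). Of 56605 probes, 32994 carried 1 symbol, 0 several and 23611 none. Names followed the GRCm38.p6 RefSeq table. The brightest probe stood for a gene, which was tested if well above background on at least 2 arrays and without such a spot (17 genes removed).

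A linear model over 8 group means was fitted with limma 3.58.1 (R 4.3.3), with the groups of a side weighted alike and Benjamini-Hochberg adjustment over all 17404 genes in each comparison. Its recovery was tested on simulated data. Tables came from pandas 2.3.3 and numpy 2.4.6 in Python 3.11.15, and plots from matplotlib 3.10.9. Arrays limit precision by their number. The labels call arrays of a group separate samples without saying that each is another animal, so p-values measure the spread between these samples. Deviations of same-numbered arrays from their group means had correlations of −0.478 to 0.556 (median 0.0275, 20 of 66 pairs over 0.1). Those of other-numbered arrays were −0.556 to 0.507 (median −0.00594, 29 of 144 pairs over 0.1). In groups of 2 arrays the deviations mirror each other, so these values cannot settle whether numbers pair samples, and no pairing was used in the main fit. In Krt5-Cre, Upk2-Cre and Trp53 het, replicate 1 was on slide 3 and replicate 2 on slide 1.

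All 9 members are named, with up to 4 genes of smallest p of each list in BBN against normal, any list gene passing elsewhere, Trp53, and the 4 genes most like each of 5 members. Members, lists and tests were chosen with earlier results of these data known. Alternatives were normexp background correction (offset 50), quantile normalization, the deposited table, no and strict filters, averaging a gene's probes, fits on only those arrays a comparison uses, replicate number, slide or scanner as a block, sex label and Xist minus Y-linked covariates, shared codes averaged and each array left out. Chosen after seeing the data were fits within a scanner, fits without BBN arrays that go against their sex label, and fits per probe.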

Additional observations from a re-analysis of the deposited data

How the results depend on the processing

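Of the 5 members that passed in BBN against normal, 3 did so under the strict filter, where the dim ones are not tested, and 3 with slide as a random block. With the scanner as a block 2 passed, with the Xist minus Y-linked covariate 2, and 3 without the BBN arrays that go against their sex label. Leaving out 1 array gave 2 to 6, with 2 without any one normal. Of 63 pairs of group and member, 22 passed in the main fit and 14 to 25 with 1 array left out (14 without normal replicate 2). With only the arrays compared 33 passed, with the scanner as a block 15 and with slide as a random block 16. Fgfr4 turned to −0.11 with the scanner as a block. Fgf10 no longer passed under quantile normalization (1.05, adjusted p = 0.310). The replicate number as a block, though the numbers are not known to pair the samples, left 5 members and 19 pairs passing, with Fgfr1 at −1.53. It left 0 members passing in each of the 6 other comparisons, as did each other alternative run there. Quantile normalization moved the all-gene median to −0.01 from 0.13 and normexp to 0.23, less than the changes of the members that passed. The causes of these shifts were not tested. Depth of signal limits Fgf2, Fgf10 and Fgfr4, which were above background on 7, 4 and 14 of 22 arrays.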

Other observations

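Over the 19 BBN bladders, further marker scores moved with Fgfr1 and Fgf1. Fgfr1 correlated with the endothelial score (r = 0.85, permutation p = 2e-05, adjusted 0.000315, rho = 0.87, p = 2e-05, adjusted 0.00042, and r = 0.78 without the 2 arrays farthest from the median of that score). It also correlated with the nerve and Schwann cell score (r = 0.80, permutation p = 6e-05, adjusted 0.000756, rho = 0.73, p = 0.00061, adjusted 0.00549, and r = 0.77 without the 2 arrays farthest from its median). Within the scanners, r was 0.87 and 0.82 for the endothelial score and 0.82 and 0.81 for the nerve score. Fgf1 correlated with the luminal score (r = 0.67, permutation p = 0.00158, adjusted 0.0111; rho = 0.65, p = 0.00351, adjusted 0.0246; 0.59 without the 2 farthest arrays, 0.71 and 0.70 within the scanners).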
